A study of Mus musculus with 14 samples.

Results

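Extracellular matrix and fibrosis genes were followed in mouse hepatocytes in which the gene of the splicing factor SRSF1 had been deleted. The set holds 10 genes: Col1a1, Col1a2, Col3a1, Dcn, Sparc, Lum, Vim, Timp1, Fn1 and Tgfb1. All 10 were found by their symbol in the deposited table, which holds 54446 genes and 137767 transcripts, and 64 transcripts belong to them. The 14 libraries came from purified hepatocytes of mice on a C57BL/6 background and fall into 6 groups. Controls at postnatal day 10 (control_P10, 2 libraries) and at 1 month (control_1m, 2 libraries) had the genotype albcre+/-, a Cre recombinase gene under the albumin promoter, with no floxed Srsf1 listed and no treatment. Hepatocyte knockouts of the same ages (HKO_P10 and HKO_1m, 2 libraries each) were srsf1f/f;albcre+/- and untreated. The acute groups were srsf1f/f animals of 10 weeks that had received an AAV8 vector at 8 weeks, either aav-tbg-gfp (GFP_acute, 3 libraries) or aav-tbg-icre (acHKO_acute, 3 libraries), with the hepatocyte promoter TBG driving expression. Both promoters are active in hepatocytes, and the albumin promoter can also be active in the precursors they share with bile duct cells. The labels do not say whether replicates are separate animals, so p-values measure only the spread between these libraries. In the albumin-Cre model the knockout cannot be told apart from any effect of the floxed line, and in the acute model it cannot be told apart from any effect of iCre.

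Fibrosis is the build-up of extracellular matrix in an injured organ. In the liver most of this matrix is made by hepatic stellate cells and portal fibroblasts once transforming growth factor beta, encoded by Tgfb1, activates them, while hepatocytes make and secrete plasma fibronectin from Fn1. The balance between matrix proteases and their tissue inhibitors, among them the product of Timp1, sets how much matrix is removed.

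Values are TPM, a transcript's share of all transcripts in a library after correction for transcript length, summed over each gene's transcripts. Library depth is unknown, and libraries of the same group correlated with r of 0.976 to 0.994 across genes. Srsf1, the targeted gene, stood at 59.3% of its P10 control in the knockout means, at 39.2% for the 1-month groups and at 16.8% after acute deletion, and no knockout library reached the range of its controls. Summed hepatocyte markers were between 33300 and 114000 TPM in every library, with knockout means at 0.608, 0.821 and 0.831 times the control means. Knockout and control were compared with limma on log2(TPM + 1), which understates the change of genes with few TPM, and a gene counts as called when its adjusted p is under 0.05. By this test Srsf1 itself was not called at P10 (limma adjusted p = 0.05451). It was called at 1 month (limma adjusted p = 0.006101) and in the acute comparison (limma adjusted p = 2.767e-06). Because TPM are shares of a total, fold changes are given relative to the median gene, which shifted by 0.25 at P10, -0.001 at 1 month, -0.36 in the acute comparison and -0.43 between the controls of the HKO ages, on the log2 scale. The p-values test the change before this centring. The split of called genes depended on this scaling. At P10, 1268 genes were higher and 220 lower, against 718 and 698 after median-ratio rescaling, which scales each library by the median of its gene ratios to the other libraries. At 1 month, 572 were higher and 233 lower, against 791 and 904 after that rescaling and 2601 and 255 after leaving out mitochondrially encoded genes. In the acute comparison 591 were higher and 3467 lower, against 1399 and 2733, and 1148 and 835, and between the controls 714 were higher and 4480 lower, against 3015 and 2220 after median-ratio rescaling.

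The matrix genes were far more abundant in P10 libraries than at 1 month. Sparc, a collagen-binding matricellular protein, measured 67.6 and 70.1 TPM in control_P10 and 2.66 and 2.27 TPM in control_1m. Col3a1, the chain of type III collagen, measured 24.6 and 27.8 TPM in control_P10 against 0.199 and 0.366 TPM in control_1m. Both genes were high in every P10 library and low in every library of the older controls, with no overlap. Of the 10 genes, 9 were lower in control_1m by limma, where 44.3% of 11736 tested genes were called, 38.2% lower and 6.08% higher. The change was -3.98 for Col3a1 (SE 0.29, limma adjusted p = 9.046e-07), -3.91 for Sparc (SE 0.37, limma adjusted p = 5.439e-06) and -0.68 for Fn1 (SE 0.24, limma adjusted p = 0.003331) as log2 fold changes relative to the median gene. Without control_P10 replicate 2, Fn1 did not pass in this comparison. Timp1 was the gene that did not pass (adjusted p = 0.5052), at 0.0643 and 0.144 TPM in control_P10 and 0 TPM in both control_1m libraries. In bulk RNA, fewer cells of a type and less RNA per cell cannot be told apart. The summed TPM of markers of other liver cells also differed between these controls: 21.8-fold for macrophage and Kupffer cell markers, 10.1-fold for endothelial markers and 3.82-fold for stellate cell markers, or 14.9-fold without Cxcl12, beside 23.7-fold for the 9 matrix genes other than Fn1. Their part in the age difference was not tested.

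Fn1 stood apart by level. It held between 62.9% and 99.4% of the summed TPM of the 10 genes in a library, and its group means ran from 549.3 TPM in control_P10 to 123.2 TPM in acHKO_acute. Among the low genes of the 6 acute libraries, Timp1 ran from 0 to 0.0376 TPM, Col1a1 from 0.00228 to 0.0408 TPM and Lum from 0.0148 to 0.439 TPM. In each of the other 9 genes the highest group was HKO_P10 and the next was control_P10, and the ranges of these groups did not overlap. HKO_1m came after them in mean level. Below that the order was less resolved: control_1m and GFP_acute were the last 2 groups, with overlapping ranges, for 7 genes, and acHKO_acute and GFP_acute for Col3a1 and Sparc.

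All positions are from the GENCODE M21 annotation of GRCm38. Col1a1 and Col1a2, the chains of type I collagen, lie at chr11:94936224-94953042 and chr6:4504814-4541544, and Col3a1 at chr1:45311538-45349706. Dcn (chr10:97479609-97518143) and Lum (chr10:97565128-97572703) encode small leucine-rich proteoglycans and are close to each other on the plus strand of chromosome 10. Sparc lies at chr11:55394500-55423183, Vim at chr2:13573927-13582826, Tgfb1 at chr7:25687002-25705077 and Timp1 at chrX:20870166-20874735.

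**Figure D1:**
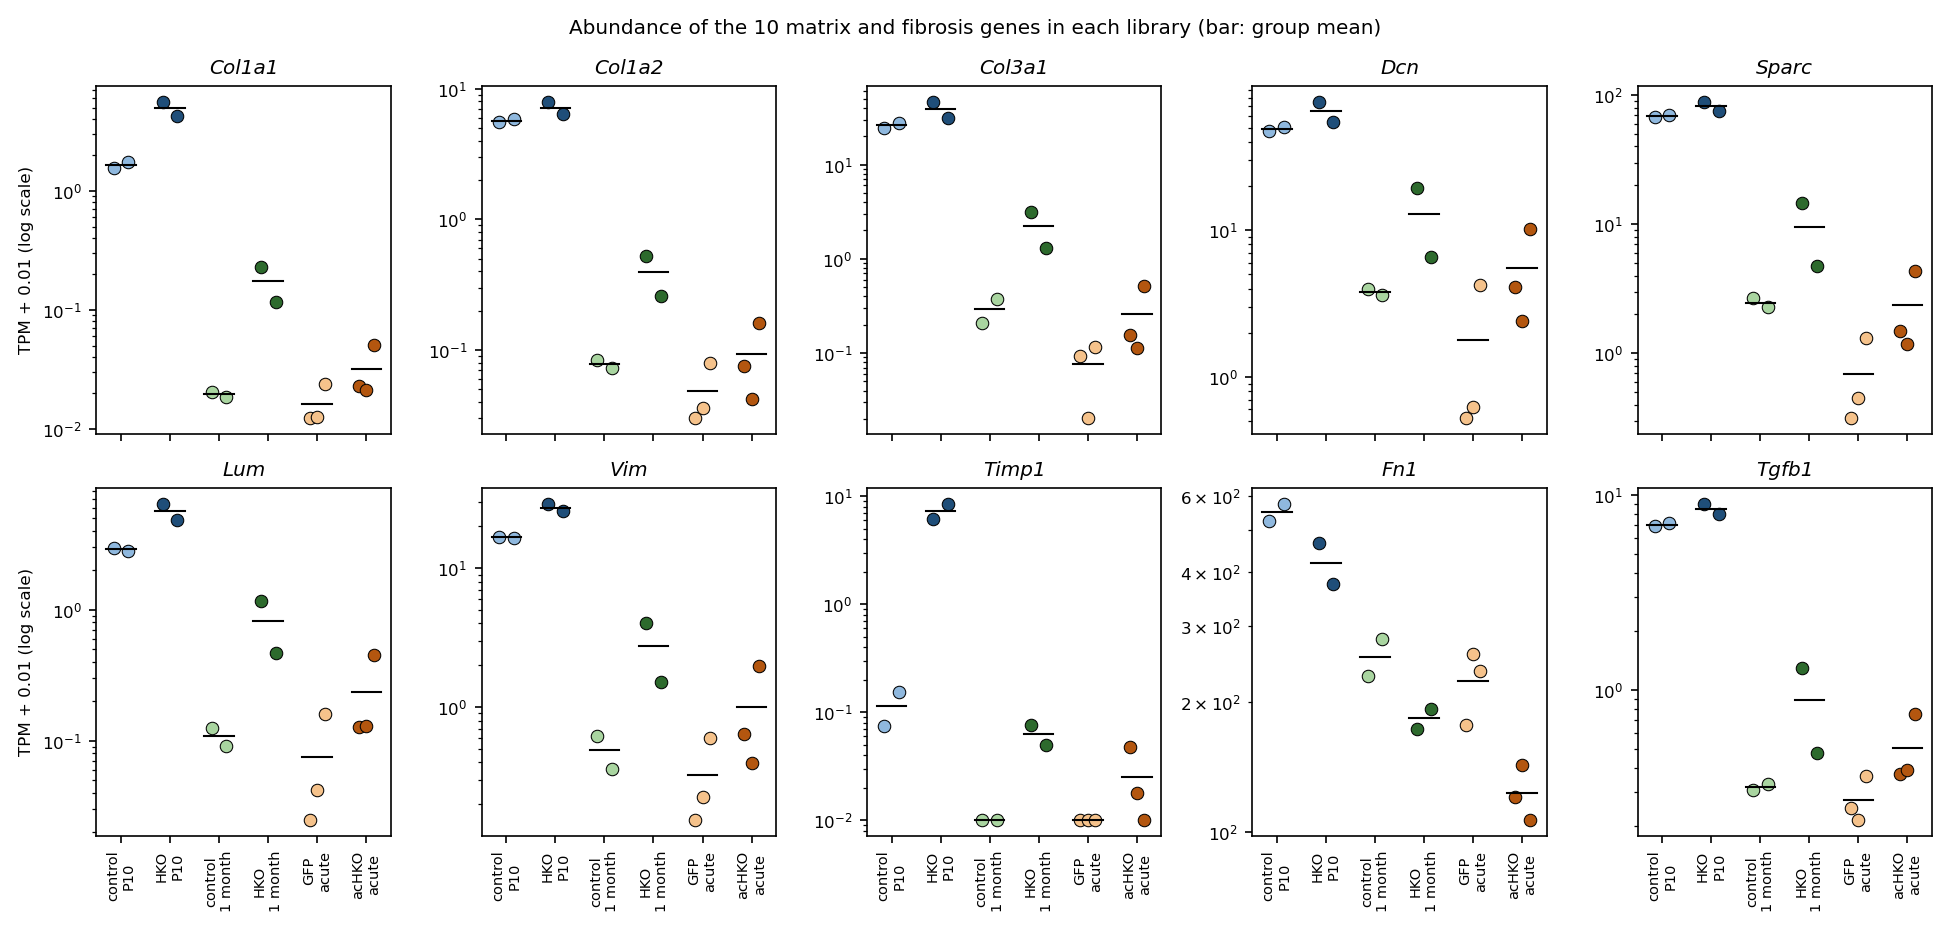
TPM plus 0.01 of each of the 10 genes on a log scale (y axis) in the 6 groups (x axis), with 1 point per library and a bar at the group mean. Apart from Fn1, each gene is highest in the 2 HKO_P10 libraries, and Timp1 sits at 0 TPM in all control_1m and GFP_acute libraries.

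The first knockout comparison asked which of these genes differ when Srsf1 is deleted during liver development and hepatocytes are sampled at P10. Timp1 showed the largest difference of the 10. It measured 6.19 and 8.47 TPM in HKO_P10 against 0.0643 and 0.144 TPM in control_P10, a ratio of means of 70.5. Both knockout libraries were far above both controls, and Timp1 was under 0.1 TPM in every 1-month and acute library. Col1a1, a chain of type I collagen, measured 5.60 and 4.26 TPM in HKO_P10 against 1.56 and 1.73 TPM in control_P10, with no overlap. Lum, which encodes the collagen-binding proteoglycan lumican, measured 6.40 and 4.80 TPM against 2.93 and 2.81 TPM, again with no overlap.

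Of the 10 genes, 3 passed as higher at P10 and none as lower, where 10.8% of tested genes were called higher, 1.87% lower and 12.7% in either direction. Relative to the median gene, the log2 change of Timp1 was 2.65 (SE 0.17, limma adjusted p = 1.541e-06), that of Col1a1 0.90 (SE 0.16, limma adjusted p = 0.00114) and that of Lum 0.51 (SE 0.21, limma adjusted p = 0.03668). Timp1 and Col1a1 reached the minimum of 1 TPM over the 8 libraries of the fit only through HKO_P10, the group where they are high. Their place in this count is therefore a description. Timp1 fell under that minimum when HKO_P10 replicate 2 was left out. With no filter on low values, where entry does not depend on level, Timp1 (limma adjusted p = 0.00128) and Col1a1 (limma adjusted p = 0.01483) passed and Lum did not (limma adjusted p = 0.1145). Lum did not pass without either control_P10 library, without HKO_P10 replicate 1 or under either other scaling. Vim passed when either HKO_1m library was left out of the shared fit. Col1a2, the partner chain of Col1a1, measured 7.94 and 6.39 TPM against 5.51 and 5.89 TPM, a relative log2 fold change of 0.03 (SE 0.18, limma adjusted p = 0.3035).

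The other genes did not pass at P10. Vim, the intermediate filament of mesenchymal cells, measured 29.0 and 25.6 TPM against 16.9 and 16.6 TPM (0.42, SE 0.28, limma adjusted p = 0.1411). Col3a1 measured 46.3 and 31.2 TPM against 24.6 and 27.8 TPM (0.27, SE 0.29, limma adjusted p = 0.2421). The proteoglycan gene Dcn, which encodes the collagen-binding protein decorin, measured 75.0 and 54.4 TPM against 47.4 and 50.2 TPM (0.13, SE 0.38, limma adjusted p = 0.5194). Sparc and Tgfb1 were near the median gene, at -0.01 and -0.02. In 9 of the 10 genes both knockout libraries lay above both controls in TPM, as for 62.6% of tested genes and 42.1% of genes above 0 TPM in at least 1 library. In the authors' deposited table for P10, 4 of the 10 genes were higher and 1 lower, with 13.4% of genes higher and 25.3% called in either direction. Its log2 fold changes were 5.82 for Timp1 (adjusted p = 2.650e-35), 1.27 for Col1a1 (adjusted p = 7.661e-13), 0.65 for Lum (adjusted p = 0.003583), 0.40 for Vim (adjusted p = 0.01266) and -0.70 for Fn1 (adjusted p = 4.952e-06) in the authors' deposited table.

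At 1 month the same deletion was compared with its own controls. The matrix genes were low in all 4 libraries, and the knockout means of 8 of them, leaving out Fn1 and Timp1, were 2.84 to 17.2 times the control means, with a median ratio of 5.67. Sparc measured 14.5 and 4.69 TPM in HKO_1m against 2.66 and 2.27 TPM in control_1m. Col3a1 measured 3.13 and 1.30 TPM against 0.199 and 0.366 TPM. Vim measured 3.99 and 1.51 TPM against 0.610 and 0.348 TPM. Every HKO_1m library was above every control for these genes, and HKO_1m replicate 1 was 2.89 times replicate 2 for the summed 9 genes other than Fn1.

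By limma 3 of the 10 genes rose at 1 month and none fell, where 4.87% of tested genes were called higher and 6.86% in either direction. On the relative log2 scale Sparc differed by 1.44 (SE 0.37, limma adjusted p = 0.04174), Col3a1 by 1.27 (SE 0.29, limma adjusted p = 0.0217) and Vim by 1.27 (SE 0.28, limma adjusted p = 0.02071). Sparc did not pass without either control_1m library or without HKO_1m replicate 1. Col3a1 did not pass without control_1m replicate 1 or HKO_1m replicate 1, and Vim did not pass without control_1m replicate 2. With no filter on low values none of the 3 passed (limma adjusted p of 0.3075 for Sparc, 0.2087 for Col3a1 and 0.2069 for Vim). Before centring, the log2 fold change was 0.72 for Sparc, 0.77 for Vim and 0.84 for Col3a1 without HKO_1m replicate 1, and 2.16, 1.76 and 1.69 without replicate 2. After median-ratio rescaling only Col3a1 of the 10 passed. Without HKO_1m replicate 2, 6 of the 10 passed.

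Dcn measured 19.4 and 6.52 TPM in HKO_1m against 3.94 and 3.59 TPM in control_1m (1.38, SE 0.38, limma adjusted p = 0.05585). Lum measured 1.16 and 0.4602 TPM against 0.115 and 0.0814 TPM (0.70, SE 0.21, limma adjusted p = 0.07664). Tgfb1, the ligand, measured 1.29 and 0.466 TPM against 0.299 and 0.321 TPM (0.49, SE 0.21, limma adjusted p = 0.2465). These genes were higher in both knockout libraries without passing the test. Col1a1 was at 0.220 and 0.106 TPM against 0.0103 and 0.00862 TPM, and Col1a2 at 0.518 and 0.248 TPM against 0.0738 and 0.0631 TPM. Such levels are small beside the pseudocount of 1, so their relative log2 fold changes of 0.20 and 0.37 understate the ratios of means of 17.2 and 5.59. Timp1 was listed at 0 TPM in both controls and at 0.0665 and 0.0398 TPM in the knockouts. In 9 of the 10 genes both knockout libraries lay above both controls, as for 21.1% of tested genes and 24.3% of genes above 0 TPM in at least 1 library, and Fn1 lay below them, as for 15.6% of tested genes.

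The authors' deposited table for 1 month has 6 of the 9 genes with an adjusted p as higher, where 8.97% of genes were higher and 13.5% were called. The log2 fold changes in the authors' deposited table were 4.11 for Col1a1, 3.06 for Lum, 3.01 for Col3a1, 2.54 for Vim, 2.49 for Col1a2 and 1.53 for Tgfb1. For Dcn (adjusted p = 0.168) and Sparc (adjusted p = 0.1294) the threshold was not passed in the authors' deposited table, and Timp1 had no adjusted p. The limma fit and the deposited table therefore both call Col3a1 and Vim, while Sparc is called by limma alone and Col1a1, Col1a2, Lum and Tgfb1 by the deposited table alone.

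The third comparison asked what follows when Srsf1 is deleted in adult hepatocytes for 2 weeks. In the acute libraries 7 of the 10 genes were under the minimum of 1 TPM and were not tested. Dcn measured 4.07, 2.41 and 10.2 TPM in acHKO_acute against 0.515, 0.616 and 4.196 TPM in GFP_acute. Sparc measured 1.49, 1.17 and 4.36 TPM against 0.306, 0.443 and 1.30 TPM. The ranges of both genes overlapped, with replicate 3 of GFP_acute above the other GFP libraries, and replicate 3 of acHKO_acute was the highest of all 6.

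Of the 3 genes tested in the acute comparison, Dcn and Sparc passed as higher and Fn1 as lower, where 40.7% of tested genes were called, 5.93% higher and 34.8% lower. Dcn differed by 1.67 (SE 0.41, limma adjusted p = 0.01795) and Sparc by 1.28 (SE 0.29, limma adjusted p = 0.02007) on the relative log2 scale. Sparc reached the TPM minimum only through acHKO_acute, the group where it is high (group means of 0.683 and 2.34 TPM), so its call is a description. With no filter on low values none of the 3 passed, with a limma adjusted p of 0.2624 for Dcn, 0.2273 for Sparc and 0.0507 for Fn1. The change of Dcn before centring was 0.83 without acHKO_acute replicate 3 and 1.88 without GFP_acute replicate 3. Neither Dcn nor Sparc passed without GFP_acute replicate 1, Dcn did not pass after median-ratio rescaling, and Sparc was under the TPM minimum without acHKO_acute replicate 3. Among the genes not tested, Vim was at 0.633, 0.386 and 1.96 TPM against 0.144, 0.213 and 0.588 TPM. Tgfb1 was at 0.360, 0.377 and 0.740 TPM against 0.237, 0.205 and 0.351 TPM. Tgfb1 was the only one of the 10 with every knockout library above every control, as for 10.4% of genes above 0 TPM in at least 1 library and 6.61% of those tested. Fn1 was the only one with every knockout library below, as for 47.1% of genes tested. Col3a1 was at 0.146, 0.103 and 0.507 TPM against 0.0820, 0.0104 and 0.106 TPM, and the collagen ranges overlapped. In the authors' deposited table for the acute model, 6 of the 9 genes with an adjusted p were higher (Col1a1, Col3a1, Sparc, Lum, Vim and Tgfb1) and Fn1 was lower, where 16.4% of genes were higher and 32.5% called. For Dcn the adjusted p was 0.07283 in the authors' deposited table.

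**Figure D2:**
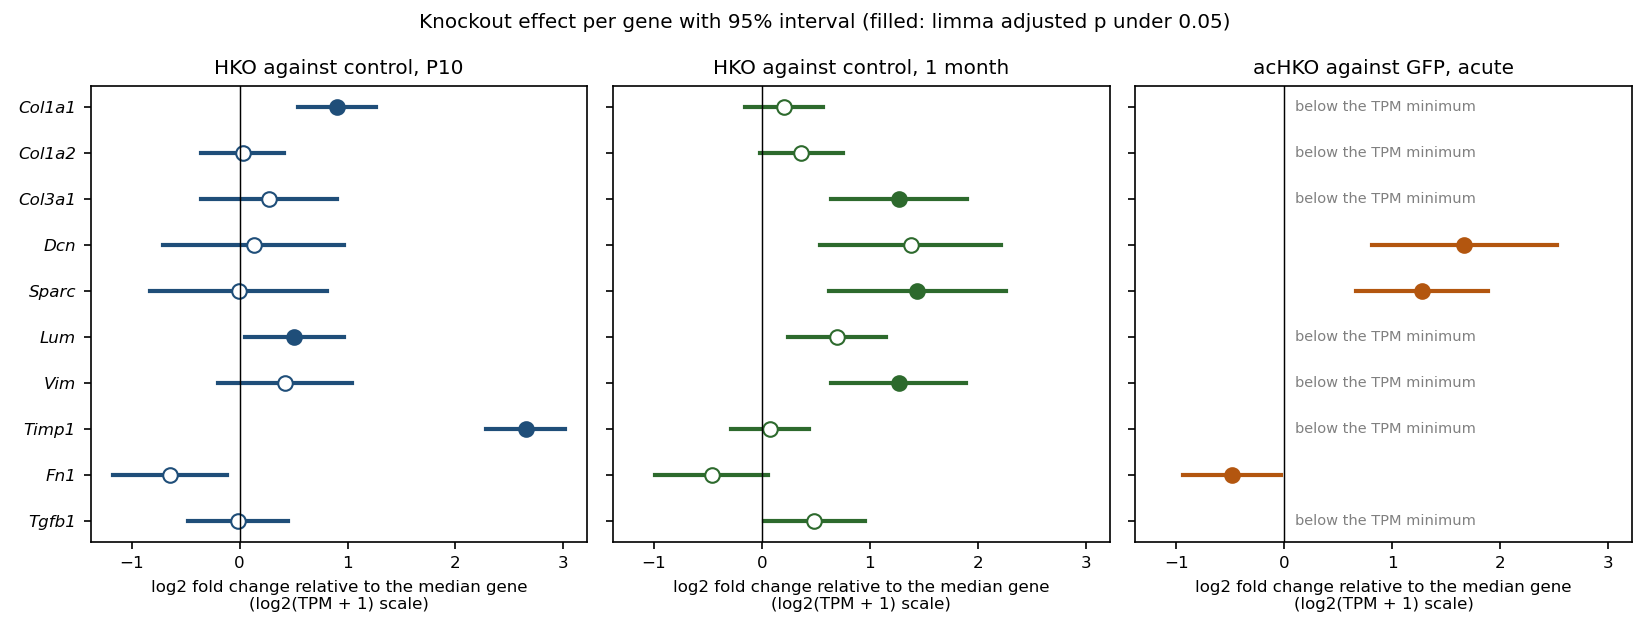
Log2 fold change of knockout against control relative to the median gene (x axis, log2(TPM + 1) scale) for the 10 genes (y axis) in the 3 comparisons, with 95% intervals. Filled points passed at an adjusted p under 0.05: Col1a1, Lum and Timp1 at P10, Col3a1, Sparc and Vim at 1 month, and Dcn, Sparc and Fn1 in the acute model, where 7 genes were not tested. The intervals are centred on the median gene, while the p-values test the change before centring. An open point can therefore have an interval that leaves out 0, as Fn1 does at P10. Col1a1 and Timp1 at P10 and Sparc in the acute model reached the TPM minimum only through the knockout group, where they are high.

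Whether the knockout effect differed between ages was tested directly. Timp1 was the only one of the 10 genes with a difference between the 1-month and P10 effects (relative log2 difference -2.58, SE 0.23, limma adjusted p = 1.499e-04), where 2.80% of tested genes were called, 1.80% lower. Its entry into this test rested on HKO_P10 as well, and with no filter on low values the limma adjusted p was 0.009862. Entry of Col1a1 rested on HKO_P10 too, and with no filter its limma adjusted p was 0.1402. For Col1a1 the difference was -0.70 (SE 0.23, limma adjusted p = 0.05577), and it was called, as the only one of 9 tested, when HKO_P10 replicate 2 and with it Timp1 were left out. Sparc (1.45, SE 0.53, limma adjusted p = 0.2913), Dcn (1.25, SE 0.54, limma adjusted p = 0.3849) and Col3a1 (1.00, SE 0.40, limma adjusted p = 0.3867) did not pass. Without HKO_1m replicate 2, 5 of the 10 genes differed. Between the acute and 1-month effects, none of the 9 genes tested passed, where 6.83% of all genes were called. Col3a1 came nearest (-0.72, SE 0.34, limma adjusted p = 0.07362), and it was the only 1 of the 9 with an unadjusted p under 0.05. It passed without HKO_1m replicate 2.

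Fn1 was lower in the knockouts. It measured 465.4 and 374.5 TPM in HKO_P10 against 524.4 and 574.3 TPM in control_P10, 173 and 193 TPM in HKO_1m against 229.6 and 279 TPM in control_1m, and 120.4, 143 and 106 TPM in acHKO_acute against 177, 259 and 236 TPM in GFP_acute. Every knockout library was below every control of its comparison, as for 13.4%, 15.6% and 47.1% of tested genes in these comparisons, and the knockout means were 76.5%, 71.9% and 55.1% of the control means. In the acute model Fn1 passed as lower (-0.48 on the relative log2 scale, SE 0.21, limma adjusted p = 0.005643), but not when mitochondrially encoded genes were left out of the scaling. At P10 (-0.65, SE 0.24, limma adjusted p = 0.2894) and 1 month (-0.47, SE 0.24, limma adjusted p = 0.334) Fn1 did not pass, and after median-ratio rescaling it passed at P10.

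Fn1 is also the member whose transcripts can be resolved by splicing. The gene lies on chromosome 1 from 71585520 to 71653200, minus strand, in GRCm38, and has 17 transcripts in the table, 9 of them protein-coding. Fibronectin is alternatively spliced at the EDB and EDA exons, of 273 and 270 bases, and in the variable (V) region. Plasma fibronectin from hepatocytes lacks EDA and EDB, while fibronectin of tissue matrix and of activated fibroblasts often includes them. In rodents the V region comes in 3 forms, made by a choice of 3 splice acceptors within a single exon and named for the codons they hold. The exon is 467 bases long in V120, 392 in V95 and 107 in V0, so V120 holds 120 codons more than V0 and 25 codons more than V95. The 25 codons, held by V120 alone, are the 75 bases at chr1:71597673-71597747. They are printed 5′ to 3′ on the strand of the gene, from the GENCODE M21 transcripts of GRCm38, with the bases AG just before the V95 acceptor in capitals. The last 40 bases before the V0 acceptor, at chr1:71597388-71597427, follow with their AG in capitals.
V120-only stretch: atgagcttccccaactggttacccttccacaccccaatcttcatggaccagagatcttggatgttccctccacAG
end of the V95 stretch: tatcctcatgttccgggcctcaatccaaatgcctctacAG

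The junctions that tell the 3 forms apart share the last 20 bases of the preceding exon, in lower case, and differ in the 20 bases that follow, in capitals.
V120 junction (Fn1-203): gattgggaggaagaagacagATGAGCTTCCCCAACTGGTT
V95 junction (Fn1-217): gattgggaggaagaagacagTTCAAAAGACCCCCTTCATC
V0 junction (Fn1-216): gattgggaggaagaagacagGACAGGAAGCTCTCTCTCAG

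Shares of the V forms were taken over the TPM of the 7 full-length coding transcripts, 1 of which was listed at 0 TPM in every library. V120, the form with the extra 75 bases, was below the range of its controls in each of the 7 knockout libraries. In GFP_acute it held 24.5%, 17.3% and 22.8% of full-length coding Fn1, and in acHKO_acute 7.29%, 7.19% and 6.996%. The mean difference was -14.3 percentage points, with an exact permutation p of 0.1, the smallest that 3 libraries against 3 allow. At 1 month V120 held 13.96% and 18.7% in the controls and 8.20% and 10.5% in the knockouts. At P10 it held 23.2% and 26.4% in the controls and 22.7% and 11.1% in the knockouts, so HKO_P10 replicate 1 lay just under the controls and replicate 2 well below. The differences were -7.0 points at 1 month and -7.88 points at P10, each with an exact permutation p of 0.3333, the smallest for 2 against 2, and the P10 value was -2.11 points without HKO_P10 replicate 2 and -13.7 points without replicate 1. Over the libraries left out the 1-month difference ran from -9.36 to -4.64 points.

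V0, the form that joins the last acceptor, had the larger share in the knockouts. It held 35.6%, 43.7% and 36.6% in GFP_acute and 60.3%, 62.6% and 62.8% in acHKO_acute, a difference of 23.3 points (exact permutation p = 0.1). At 1 month it held 48.9% and 42.0% in the controls and 57.9% and 52.7% in the knockouts, and at P10 it held 40.7% and 39.2% against 44.1% and 60.8%. All 7 knockout libraries lay above their controls for V0. Its means differed by 12.6 points at P10, which was 4.2 points without HKO_P10 replicate 2 and 20.9 points without replicate 1. At 1 month they differed by 9.84 points, from 6.4 points without control_1m replicate 2 to 13.3 points without control_1m replicate 1. V95 held 39.9%, 39.0% and 40.7% in GFP_acute and 32.4%, 30.2% and 30.2% in acHKO_acute, a difference of -8.97 points, without overlap. At P10 it held 36.2% and 34.4% in the controls and 33.2% and 28.05% in the knockouts, a difference of -4.67 points that ran from -7.25 to -2.09 points over the libraries left out. At 1 month it held 37.1% and 39.3% against 33.9% and 36.8%, a difference of -2.84 points that ran from -4.29 to -1.38 points.

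**Figure D3:**
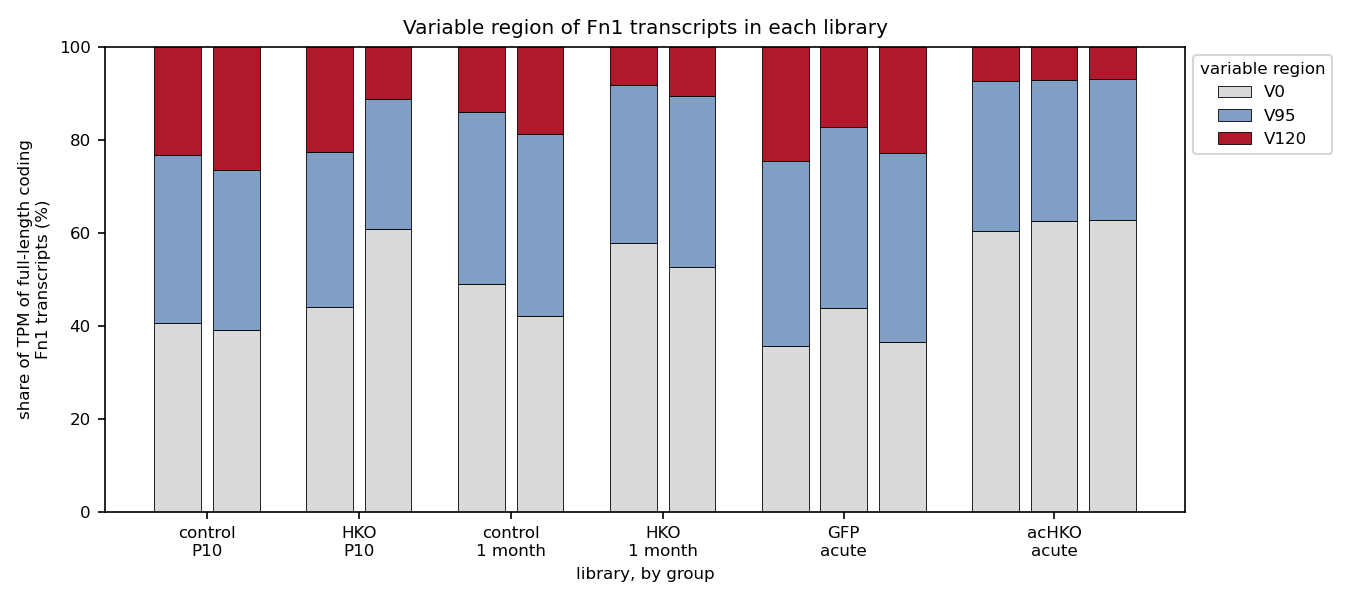
Stacked share (y axis, % of the TPM of full-length coding Fn1 transcripts) of the V0, V95 and V120 forms in each of the 14 libraries, grouped by condition (x axis). The V120 segment is between 17.3% and 24.5% in the GFP_acute libraries and between 6.996% and 7.29% in the acHKO_acute libraries.

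Whether the transcripts of a gene change unequally was tested with limma's diffSplice. Fn1 passed in the acute model (F = 37.8, adjusted p = 4.798e-07), where 41.7% of 3415 tested genes passed. The log2 fold change of Fn1-203, the main V120 transcript, was -3.18, against -1.65 for Fn1-217 (V95) and -0.62 for Fn1-216 (V0), and it was 0.70 for the most abundant transcript annotated with a retained intron. In TPM, Fn1-203 went from 36.95, 33.5 and 42.5 in GFP_acute to 3.55, 2.93 and 3.32 in acHKO_acute, with no overlap. Usage of Fn1 did not pass at P10 or 1 month (limma adjusted p of 1 in both), where 0.633% and 0.234% of 4265 genes passed. Among the other members Sparc, Dcn, Col3a1 and Vim could be tested at those ages, and none passed. The lowest adjusted p of these was 0.7273, for Dcn at 1 month by limma, and Dcn there was the only one with an unadjusted p under 0.05.

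Inclusion of EDA, the exon of cellular fibronectin, was low throughout. Its share was taken over the 8 transcripts that cover both flanking exons, among them the most abundant one annotated with a retained intron. It was 3.01% and 3.81% in control_P10 and 3.86% and 3.36% in HKO_P10, and 1.81% and 1.31% in control_1m against 1.86% and 1.29% in HKO_1m. The groups overlapped at both ages. In the acute libraries EDA inclusion was 0.885%, 1.29% and 1.19% with GFP and 2.165%, 1.70% and 1.79% with iCre, a difference of 0.768 points (exact permutation p = 0.1). The groups did not overlap there, but the TPM of transcripts with EDA averaged 2.42 with GFP and 2.14 with iCre. Over protein-coding transcripts only, mean EDA inclusion was 4.40% in control_P10 and 5.21% in HKO_P10, and 3.00% in control_1m and 3.07% in HKO_1m. On that basis it was 1.25% with GFP and 2.83% with iCre. EDB inclusion went from a mean of 0.182% to 0.804% in the acute model, also without overlap (exact permutation p = 0.1), and at P10 it was 2.96% and 3.76% in the controls and 2.95% and 2.69% in the knockouts. Transcripts annotated with a retained intron held 10.9%, 17.5% and 15.7% of Fn1 TPM in GFP_acute and 31.9%, 48.5% and 31.0% in acHKO_acute, with a summed level of 33.8 ± 13.3 TPM (SD, n = 3) against 46.9 ± 19.6 TPM (SD, n = 3). Full-length coding Fn1 measured 189 ± 28.7 TPM (SD, n = 3) with GFP and 75.3 ± 5.42 TPM (SD, n = 3) with iCre. At P10 and 1 month the retained-intron share overlapped between groups, from 20.3% to 42.7% and from 33.6% to 60.4%. TPM of such transcripts are estimates from reads that they share with spliced forms.

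The summed level of the other 9 genes differed between libraries of a group alongside markers of some cells other than hepatocytes. Dcn and Sparc held most of that sum, at 19.4 and 14.5 TPM in HKO_1m replicate 1. In acHKO_acute replicate 3 they were at 10.2 and 4.36 TPM. Timp1 did not follow the sum in every group. It was at 0 TPM in acHKO_acute replicate 3 and at 0.0376 and 0.00768 TPM in the other replicates. In HKO_P10 it was 6.19 and 8.47 TPM where the sum was 274 and 218 TPM. The library HKO_1m replicate 1 had 2.89 times the summed matrix TPM of replicate 2, beside 3.12 times for endothelial markers, 2.64 times for macrophage and Kupffer cell markers and 1.26 times for the stellate cell list, or 2.33 times without Cxcl12. The ratio was 1.54 for bile duct cell (cholangiocyte) markers, 0.835 for portal fibroblast and mesothelial markers, 0.901 for erythroid and platelet markers and 0.736 for hepatocyte markers. In acHKO_acute, replicate 3 had 3.19 times the mean of the other replicates for the matrix genes, beside 2.26 times for endothelial markers, 2.57 times for macrophage markers and 1.45 times for the stellate list, or 2.63 times without Cxcl12. Its ratio was 1.25 for bile duct cell markers, 1.12 for portal markers, 0.864 for erythroid markers and 0.703 for hepatocyte markers. Knockout over control, the matrix genes had ratios of 1.39 for P10, 3.98 for 1 month and 3.11 for the acute libraries. Macrophage markers had ratios of 1.48, 5.35 and 2.60, endothelial markers 1.20, 2.71 and 1.78, and stellate cell markers without Cxcl12 1.01, 2.34 and 1.79. Bile duct cell markers had ratios of 2.18, 6.02 and 0.883, and portal fibroblast and mesothelial markers 1.82, 3.05 and 2.08. At 1 month the bile duct list averaged 5.36 TPM in the controls and 32.2 TPM in the knockouts. Most of that knockout sum was Spp1, which is also on the list of matrix proteins described below. For erythroid and platelet markers the ratios were 5.2, 1.07 and 0.312. The part of these cells in the differences of the matrix genes was not tested.

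By mean TPM the leading genes were Cxcl12 and Reln in the stellate list, Fcgr2b and Clec4g in the endothelial list, and Cd5l and Clec4f in the macrophage list. Over all libraries the 9 genes summed to between 1.32 and 274 TPM, and endothelial markers to between 8.38 and 208 TPM. Of the 12 stellate cell and myofibroblast markers tested at P10, Rgs5 rose and Cxcl12 fell, and of the same 12 at 1 month Rgs5 rose. In the acute model only 2 of the 23 listed could be tested: Ecm1 rose (1.43, limma adjusted p = 0.03022) and Cxcl12 fell. The acute counts were 0 higher and 1 lower of 2 after median-ratio rescaling. Without mitochondrially encoded genes they were 2 and 1 of 5. Cxcl12, the most abundant gene of that list, is left out of the sums above, a choice made after its values were seen, since it fell in the acute knockouts (-1.94, limma adjusted p = 7.664e-07). With it the list's ratios were 0.707, 0.745 and 0.312. Acta2, the actin of activated stellate cells, had group means of 1.12 TPM in control_P10, 1.40 in HKO_P10, 0.0108 in control_1m, 0.0480 in HKO_1m, 0 in GFP_acute and 0.00677 in acHKO_acute. Lrat, which stores vitamin A in quiescent stellate cells, had group means from 0.110 TPM in control_1m to 3.43 TPM in HKO_P10. Of the 14 portal fibroblast and mesothelial markers 6 were under 0.1 TPM in every library, among them Wt1 and Msln. Of 19 macrophage markers tested 5 rose at P10 and 13 at 1 month, and 6 of 8 in the acute model, beside 10.8%, 4.87% and 5.93% of all tested genes. The counts were 2, 7 and 1 after median-ratio rescaling and 5, 14 and 5 without mitochondrially encoded genes. In the acute comparison Vsig4, C1qa, C1qb and C1qc reached the TPM minimum only through acHKO_acute. Of 17 endothelial markers none passed the limma test at P10, where none had an unadjusted p under 0.05, and Fcgr2b rose at 1 month, where 11 had. None of 9 passed in the acute model, where 2 had an unadjusted p under 0.05. HKO_P10 replicate 2 also held more erythroid and platelet marker RNA than any other library, 2990 TPM against 520.0 TPM in HKO_P10 replicate 1.

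**Figure D4:**
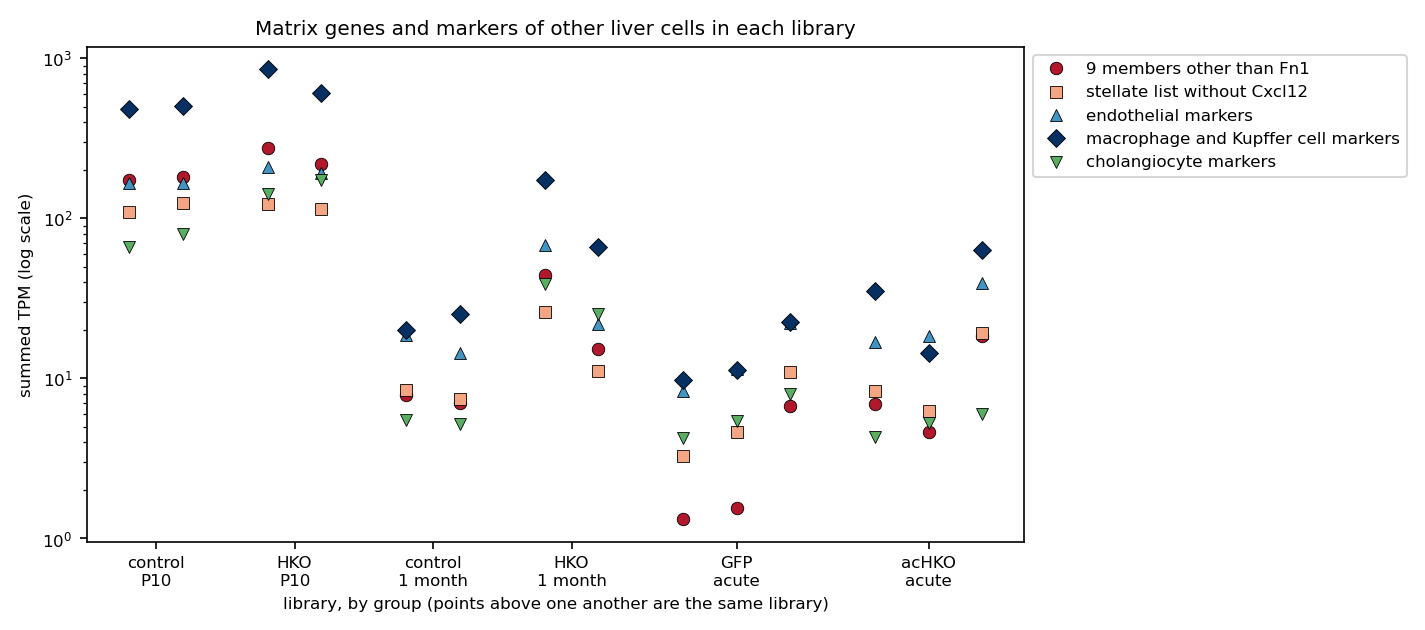
Summed TPM (y axis, log scale) of the 9 matrix genes other than Fn1 and of marker lists for stellate, endothelial, macrophage and bile duct cells in each library (x axis, by group). HKO_1m replicate 1 and acHKO_acute replicate 3 are the highest of their groups for the matrix genes, at 44.2 and 18.4 TPM, and for each of the stellate, endothelial and macrophage sums.

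Genes that act around these members were described from lists of matrix and fibrosis pathways. Their counts stand beside 10.8% of all tested genes higher and 1.87% lower at P10, 4.87% and 1.99% at 1 month, and 5.93% and 34.8% in the acute model. Some listed genes reached the TPM minimum only through the group where they are high, so the counts are descriptions. In the TGF-beta pathway list, 10 of 32 tested genes rose and 1 fell at P10, with a median relative log2 fold change of 0.13. They included Gdf15 (group means 3.71 in controls and 21.4 TPM in knockouts, relative log2 fold change 1.99, limma adjusted p = 7.257e-04), a stress-induced ligand of the family, and Pdgfa (2.26 and 10.9 TPM, 1.62, limma adjusted p = 1.255e-04), a growth factor for mesenchymal cells. Fst, which encodes the activin inhibitor follistatin, rose as well (1.40, limma adjusted p = 4.992e-04). Some receptors of the Tgfb1 product, named after their values were seen, were among them: Tgfbr2 at 1.1418 (limma adjusted p = 0.002351) and Tgfbr1 at 0.59 (limma adjusted p = 0.01315). Tgfbr3 (-0.32, limma adjusted p = 0.7911) and Eng (-0.14, limma adjusted p = 0.8296) of the same list did not pass. Nrep was the gene that fell at P10, at group means of 99.6 and 27.4 TPM (-2.08, limma adjusted p = 0.001389). At 1 month 3 rose, Nrep, Pdgfa and Pdgfc, and none fell (median 0.33). Nrep was there at 2.22 and 7.38 TPM (1.37, limma adjusted p = 0.009993), and its effects at the ages differed by 3.45 (limma adjusted p = 0.001153). In the acute model 5 rose and 5 fell of 22 (median 0.17), with Pdgfa at 1.60 and Nrep at -3.01 (28.1 and 2.11 TPM). Tgfbr1 fell there (-0.40, limma adjusted p = 0.008724). After median-ratio rescaling these counts were 7 and 1 at P10, 4 and 2 at 1 month, and 5 and 5 in the acute model, and without mitochondrially encoded genes 12 and 1, 12 and 0, and 5 and 3.

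Matrix turnover genes, the setting of Timp1, had 7 of 18 tested genes higher and 1 lower at P10, and list medians were 0.13 there, 0.18 for the 1-month groups and 0.03 after acute deletion. Mmp12, a macrophage elastase, had group means of 0.108 and 13.7 TPM (3.28 on the relative log2 scale), and Plaur, the urokinase receptor, 0.655 and 3.85 TPM (1.30). Both reached the TPM minimum only through HKO_P10, where they are high, so their values are given with no test. At 1 month 2 rose, Ctss and Timp2. In the acute model 4 rose and 4 fell of 13, among them Mmp15 at 1.73 (limma adjusted p = 2.096e-04) and the plasminogen gene Plg at -2.15 (limma adjusted p = 3.393e-06). After median-ratio rescaling the counts were 4 and 1, 3 and 1, and 3 and 3, and without mitochondrially encoded genes 8 and 1, 7 and 0, and 3 and 2.

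Of the 12 other collagens tested at P10 by limma none passed, 2 had an unadjusted p under 0.05, and 1 fell after median-ratio rescaling, which left 11 to test. Without mitochondrially encoded genes 1 of 15 rose and 1 fell at P10, and none passed at 1 month. Col27a1 fell at 1 month (-0.95, limma adjusted p = 0.0429) and was at 4.63 and 0.642 TPM in the acute groups, where it reached the minimum through GFP_acute and is given with no test. Collagen processing enzymes had 4 of 13 higher at P10 and 2 at 1 month, with Pcolce, an enhancer of procollagen cleavage, at 0.71 (limma adjusted p = 0.003357) and 1.47 (limma adjusted p = 2.626e-04). In the acute model 4 of 10 fell, among them Plod3 and P4hb, where 34.8% of all tested genes were lower. Higher and lower counts of this list were 1 and 1, 2 and 2, and 1 and 1 after median-ratio rescaling, and 4 and 0, 5 and 0, and 0 and 0 without mitochondrially encoded genes, for P10, 1 month and the acute model.

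Among basement membrane and other matrix proteins 4 of 23 rose and 1 fell at P10, which became 1 and 4 after median-ratio rescaling, and Nid1, a basement membrane linker, had group means of 24.2 and 73.3 TPM (1.31, limma adjusted p = 4.407e-04). At 1 month 5 of 23 rose and none fell, against 5 and 4 after that rescaling. Spp1 (osteopontin) was at 1.06 TPM in control_1m and 25.2 TPM in HKO_1m (3.62, limma adjusted p = 2.305e-05). In the acute model 3 rose and 5 fell of 11, with the fibrinogen genes Fga (-1.65) and Fgg (-1.47) among the lower ones, against 2 and 4 after median-ratio rescaling. Without mitochondrially encoded genes the counts of this list were 5 and 3, 9 and 1, and 3 and 4. Matrix receptors had 5 of 23 higher at P10, with the collagen receptor Ddr1 at 1.85 (group means of 0.568 and 5.78 TPM, again over the minimum through HKO_P10) and Lgals3 at 2.57 (limma adjusted p = 1.574e-04), and 5 higher and 1 lower at 1 month, against 4 and 1, and 8 and 2, after median-ratio rescaling and 6 and 1, and 13 and 1, without mitochondrially encoded genes. The intermediate filament list, to which Vim is akin, had 4 of 7 higher at P10, among them the hepatocyte keratins Krt8 (1.28, limma adjusted p = 0.00317) and Krt18 (1.21, limma adjusted p = 0.006985), against 2 after median-ratio rescaling and 6 of 8 without mitochondrially encoded genes.

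Genes with the pattern most like a member were ranked by Pearson's r of log2(TPM + 1) over the 14 libraries, which share groups and composition. For Timp1 the nearest were Cldn4 (r = 0.994), Sprr1a (0.989), Plet1 (0.986), Cldn7 (0.985) and Mir7678 (0.984). Timp1 was above 0.144 TPM only in the HKO_P10 libraries, so a high r with it says little beyond a high level there. Cldn4 and Cldn7 encode tight junction proteins of bile duct epithelium and stood on the cholangiocyte list. That list had 4 of 6 tested genes higher at P10, beside 10.8% of all tested genes. After median-ratio rescaling 3 rose and 1 fell, and without mitochondrially encoded genes 5 of 7 rose. Cldn4 was at 3.25 and Cldn7 at 2.82 at P10, and the 1-month effects of both minus those at P10 were -2.93 and -2.39. Both genes were under 1 TPM in the other groups of that fit and reached the minimum through HKO_P10. They are therefore given with no test, and the count of the list is a description. Col1a1 was nearest to Panx1 (0.998), Igdcc4 (0.997), Sult2a6 (0.995), Tnfrsf21 (0.995) and S100g (0.994). Fn1 was nearest to Prdx4 (0.988), F10 (0.988), Entpd4b (0.977), Nmral1 (0.976) and Man2b1 (0.976). F10 encodes a coagulation factor that hepatocytes secrete, as they do plasma fibronectin.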

How the data were processed

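The authors deposited 1 table of transcript TPM for the 14 libraries and 3 gene tables. Per the submitters' processing notes, bcl2fastq 2.17.1.14, kallisto 0.46.0 and DESeq2 (no version) were used with GRCm38 (mm10), and the labels' protocols name a stranded mRNA library kit. Per the file headers, the deposited gene tables list, for each gene, the mean of its normalized counts, the log2 fold change and its error, the test score (statistic), and a raw and an adjusted p-value. kallisto divides reads shared by transcripts among them by estimation, so TPM of similar isoforms are less certain than gene sums, and only annotated transcripts are seen.

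Transcript TPM were summed per gene. The test was limma (version 3.58.1, R version 4.3.3; lmFit, eBayes with trend, two-sided) over genes averaging 1 TPM or more in the fit, on log2(TPM + 1), with Benjamini-Hochberg adjustment over all genes tested and a threshold of 0.05. P10 and 1 month shared a fit of 8 libraries, the acute model had its own 6, and the acute and 1-month effects were compared over 14. Transcript usage was tested with diffSplice on transcripts with at least 1 TPM and 5% of their gene, and Fn1 shares with two-sided exact permutation tests. Depth is unknown because TPM keep no counts. Scripts were tested on simulated data. Fn1 exons and sequences came from the GENCODE M21 annotation and transcripts.

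The members and lists were chosen with earlier results of these data known. Named were the 10 members, Srsf1, up to 3 called genes with the smallest adjusted p per list and comparison, and the 5 genes nearest in pattern to Col1a1, Timp1 and Fn1. The 2 genes with the highest mean TPM were named for the stellate, endothelial and macrophage lists. Alternatives were median-ratio rescaling, rescaling without mitochondrially encoded genes, a pseudocount of 0.1, no filter on low values, all libraries in 1 fit, a replicate block, leaving out each library, protein-coding transcripts only for EDA, and a looser transcript filter for diffSplice. Acta2, Lrat, Wt1, Msln, Tgfbr1, Tgfbr2, Tgfbr3 and Eng were named after their values were seen. The shares of the V forms and of retained-intron transcripts without each library and the stellate sum without Cxcl12 were chosen after seeing the data.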

Additional observations from a re-analysis of the deposited data

Results flagged for a closer look

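The knockout effect on Timp1 differed between the ages of the albumin-Cre model. On the log2(TPM + 1) scale the 1-month effect minus the P10 effect was -2.83 (limma adjusted p = 1.499e-04), tested as an interaction. Both HKO_P10 libraries, at 6.19 and 8.47 TPM, were far above the other 12 libraries, which ran from 0 to 0.144 TPM. Timp1 reached the TPM minimum only through HKO_P10, the group where it is high, and could not be tested without HKO_P10 replicate 2. With no filter on low values it passed (limma adjusted p = 0.009862).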

How the results depend on the processing

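Of the 10 genes 3 were called in each of the knockout comparisons. Other settings left 2 to 4 at P10. At 1 month the count was 1 after median-ratio rescaling, 5 without mitochondrially encoded genes, 6 with a pseudocount of 0.1, 0 with no filter on low values and 5 with the replicate block, and it ranged from 1 to 6 over the libraries left out. In the acute model it was 0 with no filter and 1 to 3 over the libraries left out. The age difference between controls kept 8 or 9 calls. The difference between the HKO ages had 1 call, and 1 to 5 over the libraries left out, and that between the acute and 1-month effects 0, and 0 to 1. Before centring on the median gene, log2 fold changes at P10 of 0.24 for Sparc and for Tgfb1 reversed to -0.0420 and -0.0181 after median-ratio rescaling, neither of them called. The EDA share moved with protein-coding transcripts only, to 0.812 points at P10 and 1.58 points in the acute model. Over the libraries left out it ranged from -0.198 to 0.595 points at P10 and from -0.269 to 0.303 points at 1 month, so its sign there rests on single libraries (P10 -0.198 without control_P10 replicate 1 and -0.0485 without HKO_P10 replicate 1, 1 month -0.232 without control_1m replicate 2 and -0.269 without HKO_1m replicate 1). The retained-intron share ranged from -5.7 to 16.8 points at P10 and from -13.4 to 13.4 points at 1 month, reversing without HKO_P10 replicate 2 (-5.7), control_1m replicate 1 (10.4) or HKO_1m replicate 2 (13.4). Over all genes, calls at P10 numbered 1488, and from 562 to 3582 under the alternatives, and at 1 month 805, and from 391 to 2856. In the acute comparison they numbered 4058, and 1983 without mitochondrially encoded genes. The cause of these changes was not tested, except that a lower minimum adds genes to test. Deviations of same-numbered libraries had an r of 0.001 at P10, 0.264 at 1 month and -0.003, 0.278 and 0.242 in the acute model. The labels name no shared source for a number and not every acute pair correlated, so the numbers were not used to pair libraries. With the replicate block, calls among the 10 genes numbered 4 for P10, 5 for 1 month and 3 for the acute groups.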
